A study of Mus musculus with 20 samples.

Results

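The genes described here are 59 nuclear genes that encode subunits of respiratory chain complexes I to IV, chosen by symbol from the 48440 genes in the table of counts. All 59 were found: 35 belong to complex I, 4 to complex II, 9 to complex III and 11 to complex IV, with Ndufa4 placed in complex IV. They were measured by RNA sequencing of mRNA from the gonadal fat pad, a white fat depot, and from the liver of C57BL/6 mice. Mice with the genotype label AdEpsKO, deficient in protein kinase C epsilon and called KO here, were compared with wild-type (WT) mice. All mice, WT included, had eaten high fat food for 1 week and had gone without food for 6 h, so no group shows a regular diet or the fed state. Each of the 4 combinations of genotype and tissue held 5 libraries, 20 in all, from 5 mice per group. The sources do not spell out the label AdEpsKO, so the promoter that drove the deletion and the cells it reached are not known, and neither the age nor the sex of the mice is given.

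The respiratory chain sits in the inner membrane of mitochondria and passes electrons from NADH and succinate to oxygen, and complexes I, III and IV pump protons as they do so. Complex I takes electrons from NADH and complex II, which is also an enzyme of the citric acid cycle, takes them from succinate; both hand them to ubiquinone, complex III passes them on to cytochrome c, and complex IV reduces oxygen. Most subunits are encoded in the nucleus and assemble with a few encoded in mitochondrial DNA. In fat and liver the chain provides energy for fat storage and the making of glucose.

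Promoters of the members were read first, as a description of sequence that was not related to the levels of the members or to how they moved together. RefSeq promoters of build GRCm38.p6, 250 bases before to 50 bases after a start of transcription, were matched by symbol for 49 of the 59 members and for 27025 genes in all. Both strands were searched for the core motifs of NRF1 (GCGCA and GCGC separated by any 1 base, N) and GABPA (CCGGAAG), activators of genes for mitochondrial proteins, and for those of YY1 (AAGATGG), the estrogen-related receptors (AAGGTCA) and the TATA box (TATAAA); none of these motifs contains another. The NRF1 motif was found in 11 members, or 22.4%, against 5.19% of all genes, and in 4.6% of all 32851 promoters. The GABPA motif was found in 11 members, or 22.4%, against 9.93% of all genes. The YY1 motif was found in 8 members (16.3%, against 7.28% of genes), the receptor motif in 4 (8.16%, against 5.38%) and the TATA box in 4 (8.16%, against 15.7%). Either of the first pair was present in 20 of 49 members, against 14% of genes: in 11 of 32 of complex I, 3 of 3 of complex II, 3 of 5 of complex III and 3 of 9 of complex IV. These matches describe letters in a window, and binding was not measured. The shares over all genes were not matched for the GC content of promoters.

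Promoters of 4 members are shown, on the coding strand from 5′ to 3′, with the motifs above in capitals. Ndufa6 (chr15:82354242-82354541, minus strand) and Sdhd (chr9:50603800-50604099, minus strand) had the largest differences between fat and liver in complexes I and II, Ndufb3 (chr1:58586147-58586446, plus strand) had the largest difference in the other direction, and Ndufb8 (chr19:44555393-44555692, minus strand) had the highest level per length of complex I in fat. In Ndufa6 the capitals mark an NRF1 motif on the reverse strand. In Sdhd they mark, in order, an NRF1 motif, a GABPA motif on the reverse strand and a receptor motif on the reverse strand. In Ndufb8 they mark a YY1 motif, and in Ndufb3 none of the motifs was found in this window.
Ndufa6: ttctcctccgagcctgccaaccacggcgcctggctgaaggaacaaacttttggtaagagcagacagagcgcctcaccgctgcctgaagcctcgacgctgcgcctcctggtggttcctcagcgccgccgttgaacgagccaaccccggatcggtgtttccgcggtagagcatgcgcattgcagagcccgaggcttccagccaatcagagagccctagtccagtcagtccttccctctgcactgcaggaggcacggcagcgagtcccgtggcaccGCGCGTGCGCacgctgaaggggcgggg
Sdhd: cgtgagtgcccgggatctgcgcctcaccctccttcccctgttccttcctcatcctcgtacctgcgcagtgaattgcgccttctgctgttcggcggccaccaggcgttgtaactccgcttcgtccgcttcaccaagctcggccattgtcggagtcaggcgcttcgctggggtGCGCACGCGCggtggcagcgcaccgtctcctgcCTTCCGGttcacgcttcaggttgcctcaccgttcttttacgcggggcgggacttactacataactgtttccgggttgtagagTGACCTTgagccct
Ndufb8: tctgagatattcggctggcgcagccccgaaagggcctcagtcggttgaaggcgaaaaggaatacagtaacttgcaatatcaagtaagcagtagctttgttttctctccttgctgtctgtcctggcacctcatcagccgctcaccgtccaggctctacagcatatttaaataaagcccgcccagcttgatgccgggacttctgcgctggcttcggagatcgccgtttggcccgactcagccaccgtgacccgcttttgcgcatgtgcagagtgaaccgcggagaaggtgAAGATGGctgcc
Ndufb3: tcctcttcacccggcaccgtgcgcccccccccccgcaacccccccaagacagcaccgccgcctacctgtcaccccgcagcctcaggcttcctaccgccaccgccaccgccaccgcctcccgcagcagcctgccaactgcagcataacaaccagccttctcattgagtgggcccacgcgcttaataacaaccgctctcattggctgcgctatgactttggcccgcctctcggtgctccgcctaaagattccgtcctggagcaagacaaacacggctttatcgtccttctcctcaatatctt

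Libraries held 12880933 to 17276904 rounded counts in fat and 13836366 to 20784135 in liver, and every member was counted in every library, from 223 counts (Ndufb4) to 12410 (Sdha). Prkce, the gene that encodes protein kinase C epsilon, stood at 31.1 ± 5.58 CPM (counts-per-million, scaled by TMM within a tissue) in KO fat and 50.5 ± 14.5 CPM in WT fat, and in the liver at 11.1 ± 2.58 CPM in KO mice and 14.3 ± 3.56 CPM in WT mice (SD, n = 5 each). The ranges were apart in fat and overlapped in liver, and Prkce was not called in either tissue (KO to WT ratio 0.615 in fat, adjusted p = 0.687, and 0.781 in liver, adjusted p = 0.417, by edgeR). Adipocyte markers summed to 20108 to 35127 CPM in fat and 24.1 to 73.1 CPM in liver, and hepatocyte markers to 104890 to 144620 CPM in liver and 14.7 to 604 CPM in fat, with the highest fat values in KO fat 3 (604 CPM) and WT fat 4 (596 CPM). Sums of skeletal muscle markers in fat were highest in WT fat 2 (948 CPM), KO fat 2 (621 CPM) and WT fat 3 (374 CPM), those in liver were highest in WT liver 4 (293 CPM) and WT liver 2 (171 CPM), and KO fat 2 also held 1749 CPM of bladder-type epithelium. Several marker lists lay below 0 between KO and WT mice, with 0 genes called: all 5 erythroid markers in both tissues (sums of 369 to 1286 CPM in KO fat against 464 to 3137 CPM in WT fat, and 191 to 506 CPM against 322 to 973 CPM in liver), all 10 skeletal muscle markers in fat and all 7 tested in liver. So did 7 of 8 adipocyte markers in fat (20108 to 28992 CPM in KO, 24898 to 35127 CPM in WT) and, in liver, all 4 Kupffer cell markers (262 to 350.4 CPM in KO, 291 to 583 CPM in WT) and all 8 macrophage markers (215 to 303 CPM in KO, 270.0 to 525 CPM in WT). Other lists lay above 0: all 5 endothelial markers in fat and all 4 mesothelium markers in liver. In the other tissue most did not, with 4 of 5 endothelial markers below 0 in liver and 3 of 4 mesothelium markers in fat. Over all genes, 49.9% lay below 0 in fat and 50% in liver. The part of these cell types in the results was not tested. KO liver 5 had the steepest trend with GC content, with a slope of -0.40 log2 units per 10 GC points. In bulk tissue, fewer cells of a type and less RNA per cell cannot be told apart.

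The levels of the members in WT mice, per kilobase of the principal transcript and with all 20 libraries on 1 scale, differed between complexes. The medians of complexes I, II, III and IV were 70.9, 116, 168 and 252 CPM per kb in WT fat and 86.1, 209, 199 and 274 in WT liver. In complex I the lowest level was that of Ndufb4, an accessory subunit of the membrane arm, with 22 CPM per kb in fat and 24.7 in liver. Its highest level was that of Ndufb8 in fat (209 CPM per kb) and of Ndufb9 in liver (214 CPM per kb), both membrane arm subunits too. In complex II, the membrane anchor Sdhc stood below its partners, with 35.2 CPM per kb in fat and 53.7 in liver, while the flavoprotein Sdha stood at 153 and 232 and the other anchor, Sdhd, at 116 and 235. In complex III, the lowest was cytochrome c1 (Cyc1), with 92.5 CPM per kb in fat and 151 in liver, and the highest was the hinge protein Uqcrh in fat (280.3) and the small subunit Uqcrq in liver (455). Cox4i1, the largest nuclear subunit of complex IV, was the highest of all 59 members in both tissues, with 465 CPM per kb in fat and 484 in liver, while Cox7b (88.9 in fat) and Cox5b (121 in liver) were the lowest of that complex. Complex I thus spanned the low end of the range and complex IV the high end, in fat as in liver. Lengths came from 1 annotated transcript per gene, and other choices move single members: per kb of the longest transcript, the lowest member was Ndufb2, with 7.38 CPM in fat and 10.6 in liver, and the highest was Cox4i1, with 453 and 471.

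**Figure D1:**
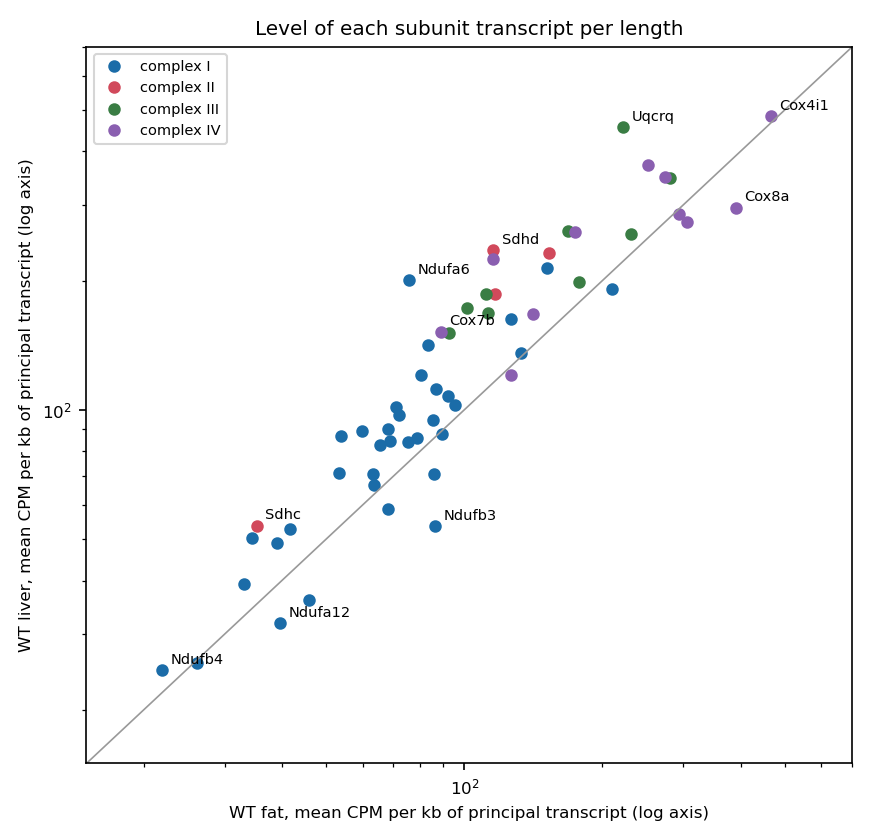
Mean level of each of the 59 members in WT fat (horizontal axis) and WT liver (vertical axis), in CPM per kb of the principal transcript on log axes, with 1 point per gene coloured by complex and a line of equal levels. Cox4i1 lies at the top right (465 and 484 CPM per kb) and Ndufb4 at the bottom left (22 and 24.7); Ndufa6, Uqcrq and Sdhd lie above the line and Ndufb3 and Cox8a below it.

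In fat, none of the 59 members passed the test between KO and WT mice. edgeR called 0 members at an adjusted p under 0.05, as it called 0% of the 14707 genes tested. At an unadjusted p under 0.05, 1 member was lower in KO (3.64% of all genes) and 0 were higher (3.49% of all genes). DESeq2 and limma-voom called 0 members as well, while DESeq2 called 16 genes in all. At an unadjusted p under 0.05 they had 3 and 4 members, against 8.03% and 7% of all genes. The log2 differences of members ran from -0.28 (Ndufa13) to 0.31 (Cox5a). The differences of 37 members lay below 0 and those of 22 above, and the median was -0.02, against 0.00 over all genes. Without KO fat 2, 40 members lay below 0 (median -0.06), without WT fat 3, 43 (-0.07), and without WT fat 4, 29 (0.00). The medians by complex were -0.05 for I, -0.03 for II, -0.02 for III and 0.04 for IV; without KO fat 2 those of III and IV were -0.08 and -0.03, and limma-voom gave -0.04 for IV. For 57 of the 59 members the 95% interval of the ratio lay within 1.5-fold either way, and for all 59 within 2-fold, so in these libraries a larger change than 2-fold lay outside the interval of each member. The intervals that passed 1.5-fold were those of Ndufab1 and Cox5a, and the widest bounds were 0.705 (Ndufa5) and 1.55 (Cox5a).

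Ndufa13, an accessory subunit of complex I also known as GRIM-19, was the 1 member with an unadjusted p under 0.05 in fat. Ndufa13 (chromosome 8, 69894180 to 69902558, GRCm38) held 101, 102, 87.2, 97.8 and 96.6 CPM in KO fat and 126, 104, 114, 113 and 134 CPM in WT fat. Every KO library lay below every WT library, a pattern that 1 of 59 members showed with KO below (0.68% of all genes) and 0 with KO above (0.592% of all genes). The means were 96.8 ± 5.74 CPM in KO and 118 ± 11.6 CPM in WT (SD, n = 5 each), and KO relative to WT stood at 0.821 (95% interval 0.723 to 0.931). The unadjusted p was 0.00567 and the adjusted p by edgeR 0.687, with a range of 0.179 (DESeq2) to 0.975 (without WT fat 5) over all alternatives. Ndufa13 has one of the most GC-rich transcripts of the members (60.4%), and with the GC and length trend of each library removed its log2 difference was -0.26. Its count was not whole, a sign of reads shared with another gene, in 5 of 20 libraries.

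Further members of complexes I and IV followed in order of p in fat, and none passed the test. Ndufb11, an X-linked accessory subunit of the membrane arm, held 96.7, 105, 87.4, 88.7 and 93.2 CPM in KO fat and 105, 96.9, 106, 109 and 105 CPM in WT fat. Cox5a, a matrix-side subunit of complex IV, held 108, 147, 143, 128 and 114 CPM in KO fat and 89, 123, 98.3, 128 and 78.2 CPM in WT fat. For Ndufb11 the ranges overlapped through KO fat 2 and WT fat 2, and for Cox5a the WT libraries spread from 78.2 to 128 CPM and reached into the KO range. The ratios were 0.901 for Ndufb11 and 1.24 (95% interval 0.986 to 1.55) for Cox5a, each with an adjusted p of 0.687 by edgeR. Cox5a had a count that was not whole in 18 of 20 libraries. Ndufa7, an accessory subunit of the matrix arm of complex I, held 92.8, 87.5, 81.9, 90.4 and 88.6 CPM in KO fat and 94.1, 97.8, 87.3, 105 and 101 CPM in WT fat. Cox6b1, a subunit of complex IV on the side of the intermembrane space, held 226, 244, 217, 232 and 240.4 CPM in KO fat and 308, 241, 243, 261 and 258 CPM in WT fat. Both groups overlapped for each of these genes, and the ratios were 0.909 (95% interval 0.818 to 1.01) and 0.885 (95% interval 0.772 to 1.01). Without WT fat 1 the log2 difference of Cox6b1 was -0.11, against -0.18. The next was Ndufa3, a small membrane arm subunit, with 55, 58, 62.9, 63.9 and 66.4 CPM in KO fat and 62.4, 62.7, 67.5, 77.3 and 70.5 CPM in WT fat; its ratio was 0.899 (95% interval 0.793 to 1.02).

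In the other complexes the smallest p in fat was that of Sdhc for complex II and of Uqcr11 for complex III. Sdhc, a heme-binding membrane anchor, held 166, 178, 146, 163 and 174 CPM in KO fat and 165, 175, 125, 166 and 141 CPM in WT fat, with a ratio of 1.07 (95% interval 0.911 to 1.26); its log2 difference of 0.10 was 0.03 without WT fat 3 and 0.15 without WT fat 2. Uqcr11, the smallest subunit of complex III, held 138, 122, 111, 127 and 139 CPM in KO fat and 145, 133, 126, 149 and 158 CPM in WT fat, with a ratio of 0.896 (95% interval 0.779 to 1.03). The 2 groups overlapped for both genes. WT fat 3 held the lowest value of its group for Sdhc, Uqcr11 and Ndufa7, a library whose mean over all members was the lowest of the fat libraries.

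In liver, too, no member passed the test between KO and WT mice. edgeR called 0 members, against 0.00752% of the 13298 genes tested, which is 1 gene. An unadjusted p under 0.05 was reached by 1 member with a higher value in KO (6.56% of all genes) and by 0 members with a lower value (6.56% of all genes). The ranges of KO and WT were apart for 0 members with KO below (1.28% of all genes) and for 0 with KO above (1.51% of all genes). DESeq2 called 138 genes and limma-voom 3, and in both no member was among them. At an unadjusted p under 0.05 they had 1 and 0 members, against 13.6% and 13.7% of all genes. The log2 differences ran from -0.22 (Ndufs7) to 0.19 (Ndufab1), with 29 members below 0 and 30 above and a median of 0.01, against 0.00 over all genes. The medians were -0.02 for complex I, 0.11 for complex II, -0.04 for complex III and 0.03 for complex IV. All 59 intervals of the ratio lay within 1.5-fold either way, with the widest bounds at 0.678 (Ndufs7) and 1.34 (Ndufa12). The balance of members above and below 0 turned on single libraries: without KO liver 5, 16 members lay below 0 and the median was 0.04, and without KO liver 1, 41 lay below 0 and the median was -0.05. Without the libraries of each genotype with the most skeletal muscle transcripts, KO liver 1 and WT liver 4, 45 lay below 0 and the median was -0.07.

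**Figure D2:**
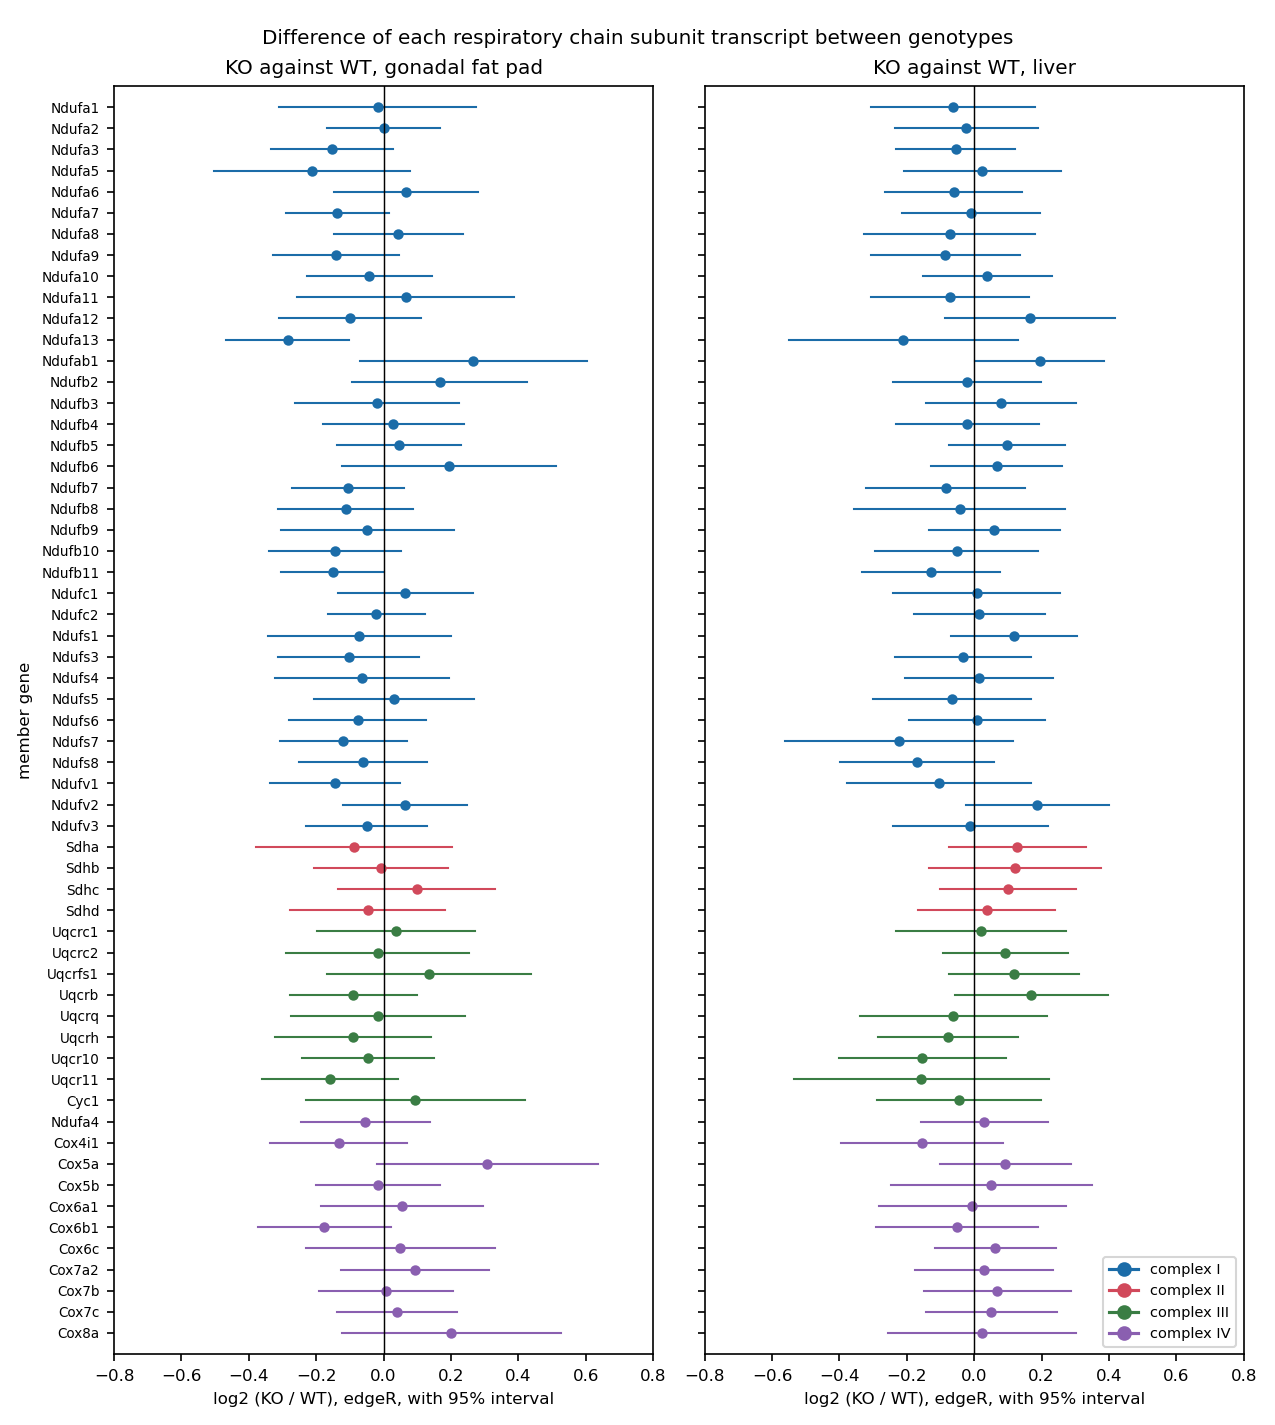
Log2 KO to WT ratio of each of the 59 members in fat (left) and liver (right), with the 95% interval from edgeR; points are coloured by complex and the vertical line marks no difference. Estimates lie between -0.28 and 0.31 in fat and between -0.22 and 0.19 in liver, and most intervals cross 0.

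The 6 members with the smallest p in liver were Ndufab1, Ndufv2, Uqcrb, Ndufs8, Ndufs7 and Ndufa12. Ndufab1, the mitochondrial acyl carrier protein and a subunit of complex I, held 79.3, 69, 64.2, 63.5 and 69 CPM in KO liver and 58.5, 53, 63.8, 64.9 and 61.5 CPM in WT liver. Ndufv2, an iron-sulfur subunit of the NADH-binding module, held 83.3, 68.2, 63, 70.7 and 84.8 CPM in KO liver and 70.2, 64.9, 68.9, 59.7 and 61.1 CPM in WT liver. In both, KO liver 1 was among the highest libraries, and the groups overlapped. The ratio of Ndufab1 was 1.14, with an unadjusted p of 0.048 and an adjusted p of 0.376 by edgeR. Without KO liver 1 its log2 difference was 0.14, against 0.19 with it, and the adjusted p by edgeR was 0.536. Uqcrb, a ubiquinone-binding subunit of complex III, held 128, 100.5, 103, 109 and 129.8 CPM in KO liver and 118, 108, 93.9, 88.5 and 99.4 CPM in WT liver, and its ratio was 1.12 (95% interval 0.961 to 1.32). Without KO liver 1 and WT liver 4, the log2 differences of Ndufv2 and Uqcrb were 0.11 and 0.08, against 0.19 and 0.17.

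The iron-sulfur subunits Ndufs7 and Ndufs8, which carry the last clusters before ubiquinone in complex I, had the lowest KO values in liver in the same library. Ndufs8 held 37.9, 33.7, 29.5, 33.9 and 24.7 CPM in KO liver and 36, 36.7, 37.7, 32.9 and 36.3 CPM in WT liver. Ndufs7 held 47.3, 46.8, 41.8, 38.8 and 24.1 CPM in KO liver and 52.3, 47.3, 38.6, 50 and 43.7 CPM in WT liver. KO liver 5 was the lowest of all 10 libraries for both genes, and the other KO libraries lay within or close to the WT range. The ratios were 0.89 (95% interval 0.759 to 1.04) for Ndufs8 and 0.857 (95% interval 0.678 to 1.08) for Ndufs7, with adjusted p-values of 0.509 and 0.558 by edgeR. Without KO liver 5, the log2 difference of Ndufs8 went from -0.17 to -0.09 and that of Ndufs7 from -0.22 to -0.09. Ndufa12, an accessory subunit of the same arm, held 34.5, 28.3, 24.6, 29 and 27.6 CPM in KO liver and 30.6, 29.4, 22.3, 23.8 and 22.2 CPM in WT liver and had a ratio of 1.12 (95% interval 0.942 to 1.34); its log2 difference of 0.17 was 0.09 without KO liver 1.

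Complex IV showed the same library at its low end. Cox4i1 held 258, 239, 243, 251 and 186 CPM in KO liver and 312, 268, 239.7, 249 and 239.8 CPM in WT liver, with a ratio of 0.898 (95% interval 0.76 to 1.06). KO liver 5 lay below the other 9 libraries, and the WT group was spread by WT liver 1. Leaving out either of these libraries gave Cox4i1 a log2 difference of -0.08. With the trend of the principal transcript removed, the log2 difference of Cox4i1 was 0.01, against -0.16 before. In complex II, the 4 members Sdha, Sdhb, Sdhc and Sdhd all had differences above 0 in liver, from 0.04 (Sdhd) to 0.13 (Sdha), and 0 of them passed the test. Sdha held 603, 536, 510.4, 559 and 468 CPM in KO liver and 525, 465, 477, 484 and 496 CPM in WT liver, with a ratio of 1.09 (95% interval 0.949 to 1.26). Without KO liver 1 the log2 difference of Sdha was 0.08, and the median of complex II was 0.05 in place of 0.11. KO and WT overlapped for each of the 4, and the summed level of complex II in the liver was 1457 ± 159 CPM for KO and 1347 ± 89.6 CPM for WT (TMM over all 20 libraries, SD, n = 5 each).

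The differences of members in liver followed the GC content of their transcripts. Over the 59 members, the log2 difference between KO and WT liver had a correlation of -0.67 with the GC content of the principal transcript, a description over genes that share the same 10 libraries. Of the 20 members with the lowest GC content (42 to 48.8%), 18 lay above 0, with a median of 0.07, and of the 20 with the highest (55.3 to 60.7%), 16 lay below 0, with a median of -0.06. The low group includes Ndufv2, Uqcrb and Ndufab1 and the high group Ndufs7, Ndufs8, Ndufa13 and Cox4i1. The slope of a library's deviations over all genes was -0.08 ± 0.18 log2 units per 10 GC points for the KO libraries and 0.08 ± 0.07 for the WT libraries (SD, n = 5 each). Without KO liver 5 the correlation was -0.38 and the median of the GC-rich members was 0.02. With the trend of every library with GC content and length removed, the correlation was 0.05, 22 members lay below 0 and the median over members was 0.04. With the trend taken on the principal transcript the correlation was 0.23, 11 members lay below 0 and the median was 0.07. In fat the correlation with GC content was -0.24, and -0.15 with the trend removed. After removal 21 members lay below 0 in fat, against 37 before, and the median was 0.05. No member was called under any of these settings in either tissue, so the removal moved the balance of signs and no call.

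**Figure D3:**
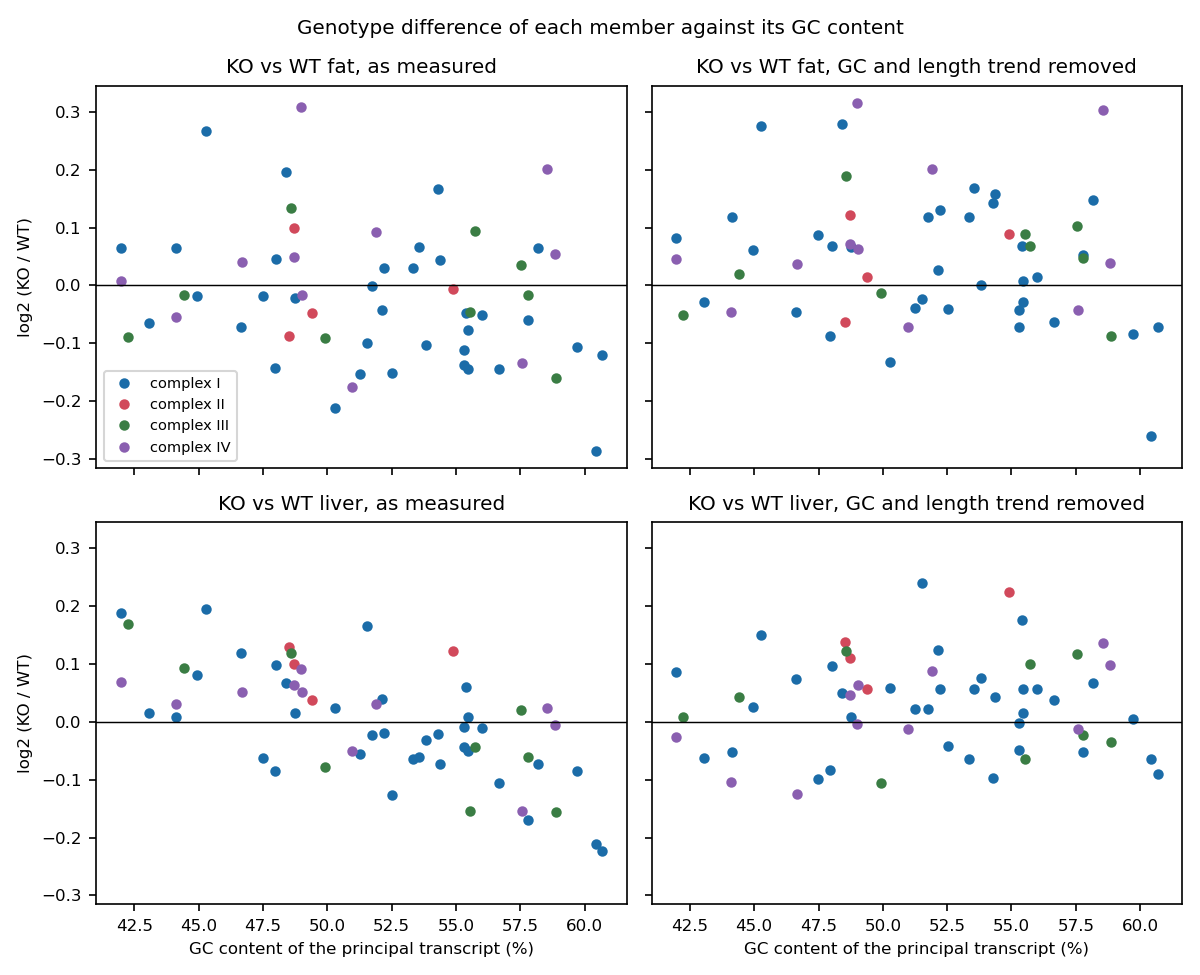
Log2 KO to WT ratio of each of the 59 members (vertical axis) against the GC content of its principal transcript in percent (horizontal axis), in fat (top) and liver (bottom), as measured (left) and with the GC and length trend of each library removed (right). In liver the points slope downward as measured (correlation -0.67) and lie level after removal (0.05).

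The difference between the KO effect in fat and that in liver was tested as an interaction over all 20 libraries. edgeR called 0 members, as it called 0% of the 15652 genes tested. An unadjusted p under 0.05 was reached by 0 members, against 5.36% of all genes. DESeq2 and limma-voom called 0 members too, with 0 and 2 at an unadjusted p under 0.05 (5.67% and 6.03% of all genes). The smallest p-values belonged to Uqcrb, Ndufa12 and Ndufa5. The log2 difference of Uqcrb in fat minus that in liver was -0.26 ± 0.14 (SE), with an adjusted p of 0.903 by edgeR. For Ndufa12 it was -0.27 ± 0.16 and for Ndufa5, an accessory subunit of the matrix arm, -0.24 ± 0.18. Ndufa5 held 34.7, 45.8, 52, 35.8 and 35.2 CPM in KO fat and 55.8, 42.4, 45.7, 49 and 42.9 CPM in WT fat, and the groups overlapped. Over the members, the differences ran from -0.27 to 0.21 with a median of -0.03, against 0.01 over all genes. The differences of 36 members lay below 0, among them those of the 4 complex II members (median -0.11). Without KO liver 1, 23 lay below 0, with medians of 0.03 over members and -0.04 for complex II. Without WT fat 3, 45 did, with medians of -0.08 and -0.17.

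Within each tissue many members moved together from library to library. The score of a library is the mean over members of its log2 CPM minus the gene's mean over the tissue. In fat the score was highest in WT fat 4 (0.14) and lowest in WT fat 3 (-0.18). In liver it was highest in KO liver 1 (0.21) and lowest in KO liver 5 (-0.21). In fat the group means were -0.01 ± 0.06 for KO and 0.01 ± 0.13 for WT, and in liver 0.00 ± 0.15 for KO and 0.00 ± 0.09 for WT (SD, n = 5 each), so that the difference between the genotypes was smaller than the spread within a genotype in both tissues. WT fat 3, the library with the lowest score, held 2123 CPM of macrophage markers (415 to 1396 CPM in KO fat, 540.0 to 976 CPM in the other WT fat libraries) and 8203 CPM of fibroblast and progenitor markers (2261 to 5218 and 1819 to 4191 CPM), and the part of these cells in the score was not tested. In the libraries at the ends of the liver range the complexes had the same sign: in KO liver 5 the scores were -0.19, -0.17, -0.28 and -0.24 for I, II, III and IV, and in KO liver 1 they were 0.19, 0.26, 0.21 and 0.24. In other libraries they parted: WT liver 2 had 0.07 for complex I and -0.10 for complex II, and WT fat 1 had 0.14 for complex II and -0.02 for complex IV. With the GC and length trend removed, KO liver 5 had the lowest liver score (-0.19) and KO liver 1 the highest (0.23). With the trend of the principal transcript removed, KO liver 5 stood at -0.10, WT liver 2 was the lowest (-0.11) and KO liver 1 was again the highest (0.22). In fat, WT fat 3 was the lowest under both (-0.24 and -0.28), while KO fat 2 was the highest (0.15 and 0.16) and WT fat 4 stood at 0.06.

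**Figure D4:**
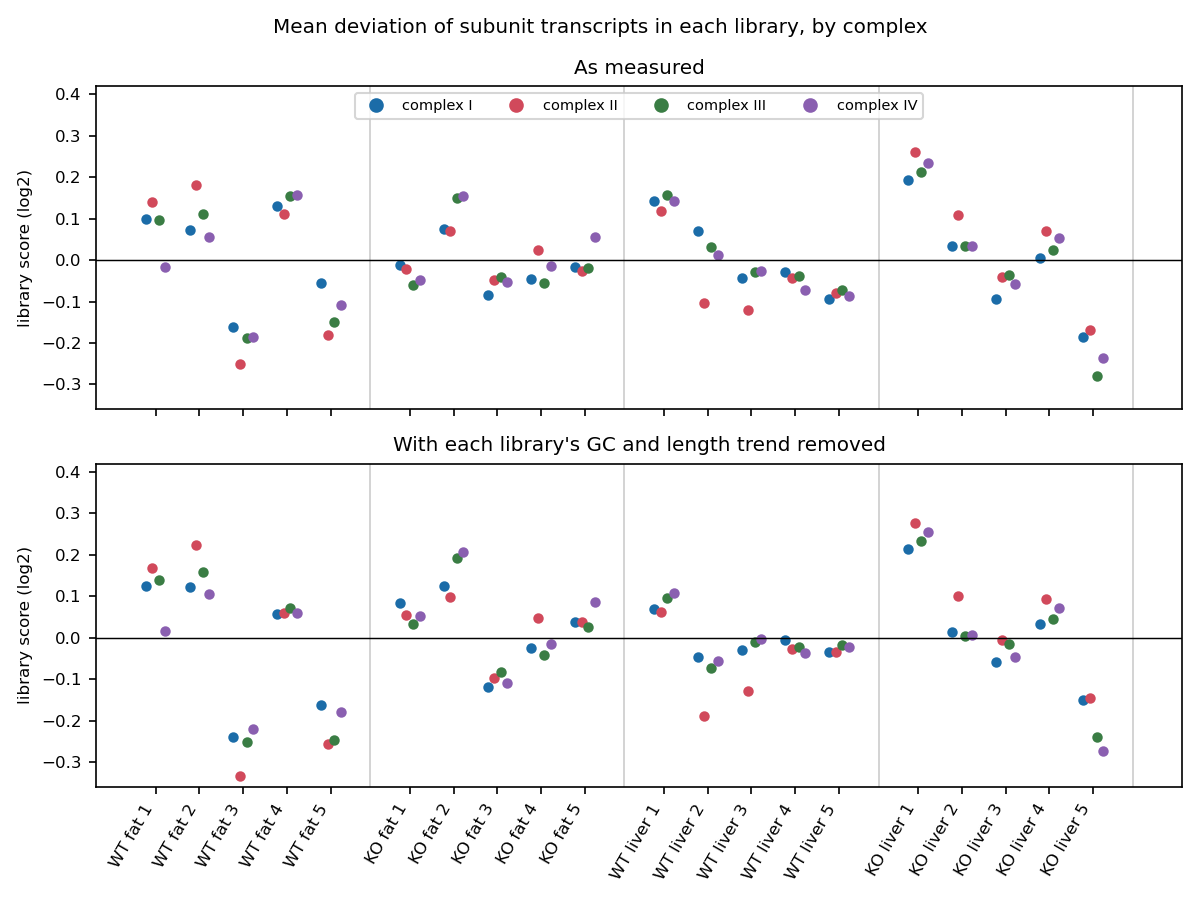
Score of each library for complexes I to IV (mean over the members of a complex of log2 CPM minus the gene's mean over the 10 libraries of the tissue), as measured (top) and with the GC and length trend of each library removed (bottom). KO liver 1 (0.19 to 0.26) and KO liver 5 (-0.28 to -0.17) mark the ends of the liver range as measured, and in WT liver 2 complexes I and II lie on opposite sides of 0 (0.07 and -0.10).

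Over the 10 fat libraries, with the mean of each group taken off, the median correlation between pairs of members was 0.50, and 0.47 within a complex against 0.52 between complexes. In liver these values were 0.59, 0.55 and 0.63. These are descriptions over 10 libraries that share their depth, scaling and GC trends. Single libraries carried part of them: without WT fat 3 the fat median was 0.37, and without KO liver 1 the liver median was 0.48, while without KO liver 5 it was 0.60. Most members followed the mean of the others: 46 of 59 in fat and 50 of 59 in liver had a correlation above 0.5 with it. The closest were Cox7a2, a subunit of complex IV, in fat (0.96) and Ndufb8, a subunit of complex I, in liver (0.98). The least close were Ndufa13 (-0.09) and Ndufa3 (-0.08) in fat and Ndufs1, the largest iron-sulfur subunit of complex I, in liver (-0.04), and Ndufs1 had counts that were not whole in all 20 libraries. The median correlation of genes outside the members with the mean of the members was 0.06 in fat and 0.01 in liver. The share of such genes above 0.5 was not counted, so the counts of members have no scale of the same kind. With the trend removed, 55 members in fat and 53 in liver passed 0.5. The 10 genes outside the members with deviations most like theirs are given in order for each tissue. In fat they were Apoo, Rmdn3, Tbp, Fbxo44, Mtmr1, Rmnd5a, Atp11b, Pcmtd1, Cdkn2aip and Ccdc122 (0.94 to 0.96). Of these, Apoo encodes a protein of the mitochondrial inner membrane. In liver they were Gstm3, Ctsd, R3hcc1, Eif5a, Rab23, Miga2, Mdh2, Atp5b, Phb and Atp5j2 (0.95 to 0.97). Mdh2 is of the citric acid cycle, Phb is a prohibitin, and Atp5b and Atp5j2 are of ATP synthase.

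Fat and liver of WT mice differed in many members. By edgeR with TMM scaling, 34 of 59 members were lower in fat, against 35.9% of the 14739 genes tested, and 5 were higher in fat, against 38.4%. In KO mice 32 were lower (35.6% of 14603 genes) and 5 higher (38.8%). The same 35 members were called in both genotypes, 35 of 39 in WT and 35 of 37 in KO, all in the same direction. Most genes were called in each genotype (10947 of 14739 in WT and 10863 of 14603 in KO), so such overlap cannot be read as particular to the members. The share of all genes called in both was not counted. The 2 log2 values of a member differed by at most 0.25 (Ndufa12). The median difference of the members in WT mice was -0.33 on the log2 scale, against 0.04 over all genes. All 9 members of complex III and all 4 of complex II had values below 0, with medians of -0.63 and -0.63, and 7 and 4 of them passed the test. In complexes I and IV the medians were -0.24 and -0.23, with 17 of 35 and 6 of 11 called lower and 4 and 1 called higher.

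The direction of this comparison depended on the scaling. With plain library sizes the median of all genes was 0.97 and that of the members 0.60, and 1 member was called lower and 50 higher. Of the 14739 genes tested, 12839 were called with these sizes, and 17.5% of the called genes were lower in fat. As a share of all counts the members made up 0.8293% ± 0.052 in the fat and 0.567% ± 0.033 in the liver of WT mice, and 0.825% ± 0.045 and 0.586% ± 0.055 in those of KO mice (SD, n = 5 each). With upper quartile scaling, 20 members were called lower and 14 higher. With library sizes that leave out the 100 genes with the most counts, 4 were called lower and 32 higher. These scalings called 11013 and 11857 of all genes, with 34.9% and 24.9% of the called genes lower in fat. Relative to the median of all genes, the member median was -0.37 with TMM, a difference that a change of scaling leaves nearly as it is by construction, and a difference in amount between the tissues cannot be read from it. That relative median was -0.15 with the GC and length trend removed, -0.27 with the principal transcript's trend removed and -0.56 with no filter on low counts. With the GC and length trend removed the members' median was -0.09 (all genes 0.06), with 20 called lower and 16 higher. With the principal transcript's trend removed the members' median was -0.19 (all genes 0.08), with 25 and 9. These settings called 11265 and 11191 of all genes, with 47.9% and 47.2% of the called genes lower. With TMM and no trend removed, 10947 were called, 48.3% of them lower.

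The largest difference was that of Ndufa6, an accessory subunit of the matrix arm of complex I that holds the acyl carrier protein, chromosome 15, 82350140 to 82354322 (GRCm38). With all 20 libraries on 1 scale, Ndufa6 held 47, 44.8, 41.3, 50.2 and 40.2 CPM in WT fat and 132, 139, 99, 111 and 111 CPM in WT liver. The ranges were far apart, and the fat to liver ratio was 0.38 (95% interval 0.322 to 0.449). edgeR gave an adjusted p of 2.58e-07. In KO mice the ratio was 0.421 (95% interval 0.366 to 0.484). Ndufa6 was also lower in fat with plain library sizes (-0.47) and with the GC and length trend removed (-1.11).

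Uqcrq of complex III and Sdhd of complex II followed. Uqcrq, a small membrane subunit, held 92.4, 97.2, 73.1, 105 and 81.5 CPM in WT fat and 179.5, 209, 167, 188 and 177 CPM in WT liver. Sdhd held 172, 149, 120.0, 145 and 126 CPM in WT fat and 334, 289, 270.0, 280.1 and 276 CPM in WT liver. For both genes the highest fat library lay well below the lowest liver library. The ratios were 0.491 (95% interval 0.413 to 0.583) for Uqcrq and 0.494 (95% interval 0.412 to 0.592) for Sdhd, and with plain library sizes the log2 differences of both were close to 0 (-0.10 and -0.09) and did not pass the test. In complex IV the largest was Cox5a, which held 64.5, 88.1, 72, 91.9 and 56.4 CPM in WT fat and 143, 129.8, 153, 143 and 157 CPM in WT liver, with a ratio of 0.517 (95% interval 0.421 to 0.635). Its log2 difference of -0.95 was -0.02 with plain library sizes, and -0.26 with the GC and length trend removed, where it did not pass the test (adjusted p = 0.0746 by edgeR).

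The members called higher in WT fat than in WT liver were Ndufb3, Cox8a, Ndufv3, Ndufa12 and Ndufs5. Ndufb3, an accessory subunit of the membrane arm of complex I, held 78.5, 59.6, 61.1, 65 and 65.5 CPM in WT fat and 45.5, 46.3, 39.5, 38.1 and 34.6 CPM in WT liver, with a ratio of 1.62 (95% interval 1.39 to 1.9) and 7.03e-05 as its adjusted p by edgeR. Cox8a, the smallest subunit of complex IV in the membrane, held 184, 259, 163, 253 and 213 CPM in WT fat and 166, 148, 153, 171 and 175 CPM in WT liver, with a ratio of 1.33 (95% interval 1.08 to 1.63). The ranges of Ndufb3 were apart and those of Cox8a overlapped. Cox8a did not pass the test with the GC and length trend removed (log2 difference 0.18) or without WT fat 2 (0.34) or WT fat 4 (0.34). Ndufv3, an accessory subunit of the NADH-binding module, held 76.3, 67.6, 63.3, 79.4 and 76.3 CPM in WT fat and 61.1, 67.3, 54.7, 45.8 and 55.6 CPM in WT liver, with a ratio of 1.28 (95% interval 1.09 to 1.51). Ndufa12 held 50.1, 46.3, 37.3, 47.2 and 39.1 CPM in WT fat and 42.4, 40.7, 30.2, 32.7 and 30.7 CPM in WT liver, with a ratio of 1.25 (95% interval 1.04 to 1.51). Both overlapped between the tissues. Ndufs5, a subunit on the side of the intermembrane space, had a ratio of 1.22 (95% interval 1.05 to 1.43). Ndufa12 was not called in KO mice (ratio 1.05 (95% interval 0.914 to 1.22)). Without WT fat 1, WT fat 2, WT liver 4 or WT liver 5 the number of members called higher was 3, and without WT fat 4 it was 2.

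**Figure D5:**
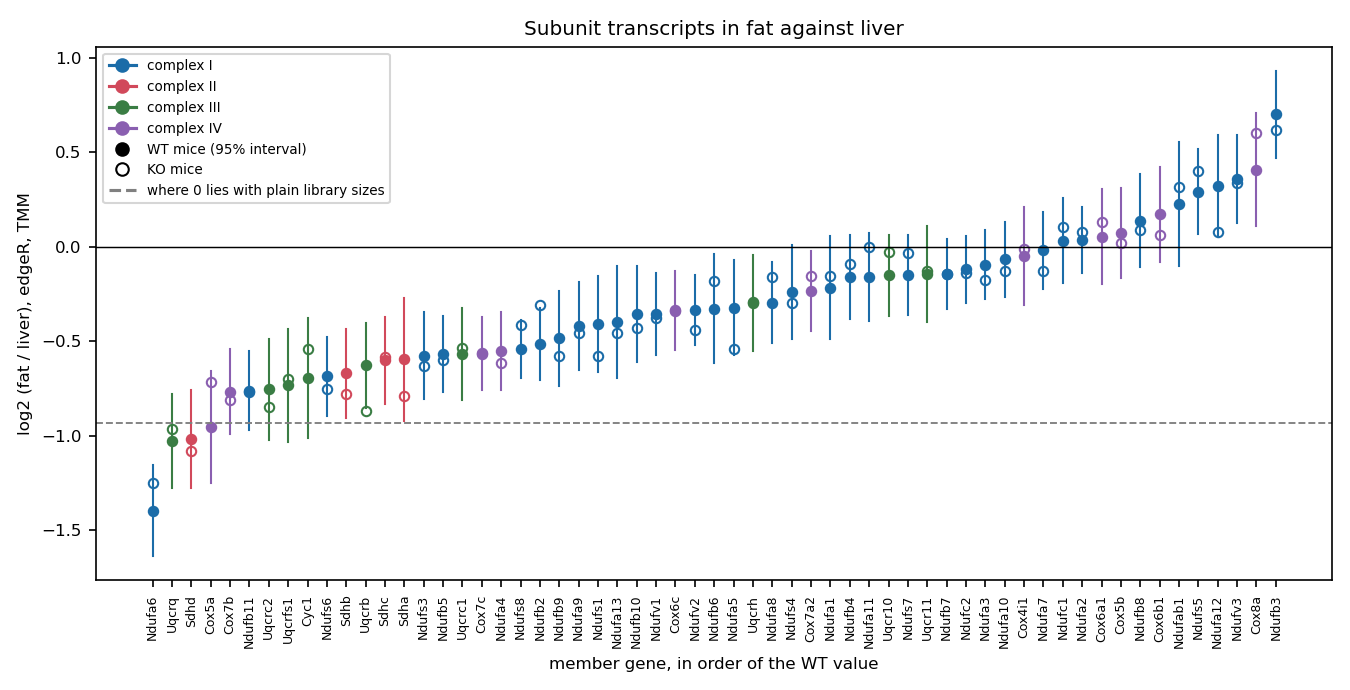
Log2 ratio of fat to liver for each of the 59 members with TMM scaling, in order of the value in WT mice (filled points, with the 95% interval), beside the value in KO mice (open points), coloured by complex. Ndufa6 stands lowest (-1.40) and Ndufb3 highest (0.70) in WT mice, and the dashed line marks where no difference lies with plain library sizes.

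Members with counts that were not whole in most libraries, and so share reads with similar sequences, are uncertain as single genes, to an extent that was not measured. Besides Cox5a these were Ndufb6, Ndufs1, Uqcrc2 and Cox6c. Expected counts of Cox5a lay close to whole numbers, such as 1437.99 in KO fat 1 and 1935.96 in KO fat 3. Ndufb6, of the membrane arm of complex I, held 70.7, 79.4, 60.7, 63 and 68.6 CPM in KO fat and 57.6, 77.3, 43.9, 67.3 and 52.8 CPM in WT fat. Ndufs1 held 155, 141, 129, 138 and 166 CPM in KO liver and 139, 130.5, 135, 136 and 130.4 CPM in WT liver. Uqcrc2, a core protein of complex III, held 273, 249, 242, 252 and 249 CPM in KO liver and 258, 225, 255, 225 and 223 CPM in WT liver, and Cox6c, of complex IV, held 147, 127, 128, 139 and 125 CPM in KO liver and 140.2, 126, 126, 121 and 124 CPM in WT liver. KO and WT overlapped for each of them in these tissues. All 4 were called lower in WT fat than in WT liver with TMM scaling, against 35.9% of the 14739 genes tested. Their log2 differences ran from -0.75 (Uqcrc2) to -0.33 (Ndufb6). Ndufb6 was called in WT mice only, and with plain library sizes 1 of all 59 members was called lower.

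Several subunits have copies that replace them in particular tissues. These paralogs and the genes of cytochrome c, which are no members, were read at plain library sizes. Cox7a1, the form of Cox7a found in muscle and brown fat, held 4.36, 18.7, 26.7, 22.7 and 9.78 CPM in KO fat and 5.85, 18.6, 25.8, 20.2 and 3.95 CPM in WT fat, against 0.53 to 2.15 CPM over all liver libraries. Cox8b, the form of Cox8 of the same tissues, held 6.61, 44.1, 71, 52.7 and 32.4 CPM in KO fat and 15.5, 50.5, 59.9, 47.3 and 18.5 CPM in WT fat, against at most 1.48 CPM in liver. Both varied several-fold among libraries of 1 genotype and were lowest in KO fat 1, WT fat 1 and WT fat 5, where brown and beige fat markers, a list that holds both genes, also had their lowest sums (26, 120.5 and 101.1 CPM, against up to 640.3 CPM in KO fat 3). The hypoxia-linked Ndufa4l2 held 6.88 to 17.9 CPM in fat and 0.529 to 1.88 CPM in liver, and Cox4i2 1.89 to 6.52 CPM in fat and at most 0.506 CPM in liver. Cox6a2, the muscle form of Cox6a, reached 3.47 CPM in WT fat 2 and 1.94 and 1.95 CPM in WT liver 2 and 4, which are also the WT libraries with the most skeletal muscle transcripts of their tissue. Cox6b2 held at most 4.58 CPM, Cyct, the testis form of cytochrome c, at most 0.0776 CPM, and Cox7b2 and Cox8c were listed at 0 in all 20 libraries. The highest levels in both tissues were those of Cox7a2l (75.7 to 143.3 CPM) and of cytochrome c, Cycs (63.6 to 193 CPM). None of the paralogs or cytochrome c genes tested was called between KO and WT mice by edgeR. Ndufa4l2 in liver had the smallest p, with a log2 difference of -0.94, an unadjusted p of 0.00345 and an adjusted p of 0.231 by edgeR.

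Other genes of the pathway were read from lists, and none of their members was called between KO and WT mice in fat or liver by edgeR. Of the nuclear subunits of ATP synthase, 9 of 16 lay below 0 in fat (median -0.01) and 6 of 16 in liver (0.01); the smallest p belonged to Atp5j2 (-0.09) and Atp5e (0.11) in fat and to Atp5f1 (0.13) and Atp5g2 (-0.10) in liver, all log2 differences. Of 41 assembly factors tested, 20 lay below 0 in fat (median 0.01) and 14 in liver (0.08); the smallest p in fat was that of Uqcc3, which helps complex III to form, with a log2 difference of -0.43 and an adjusted p of 0.687 by edgeR, and in liver those of Cox11 (0.37) and Sdhaf3 (0.53), of complexes IV and II, with adjusted p-values of 0.241 and 0.253. Of 14 genes of the citric acid cycle, 9 lay below 0 in fat and 5 in liver (medians -0.02 and 0.02), with Suclg2 (-0.17) and Idh2 (-0.20) first by p in fat and Dld (0.26) and Suclg2 (0.19) in liver. Of 7 tested genes for subunits encoded in mitochondrial DNA, 2 lay below 0 in fat (median 0.13) and 0 in liver (0.19); mt-Nd3, mt-Nd4l, mt-Co2 and mt-Co3 were counted at under 1 CPM on average in each group and were not tested. Of the regulators of mitochondrial genes, 5 of 15 lay below 0 in fat (median 0.07) and 4 of 16 in liver (0.13), with Yy1 in fat (log2 difference 0.39, adjusted p 0.687 by edgeR) and Pprc1 in liver (-0.39, adjusted p 0.254) at the smallest p. Of 78 genes for mitochondrial ribosomal proteins, 54 lay below 0 in fat and 45 in liver (medians -0.05 and -0.03). As a scale for short transcripts outside mitochondria, 59 of 77 cytosolic ribosomal protein genes lay below 0 in fat and 75 of 77 in liver (medians -0.08 and -0.18), a larger shift than that of the members in either tissue, and the test of that difference was not run. Between WT fat and WT liver with TMM scaling, 35.9% of all genes were called lower in fat and 38.4% higher (median 0.04). ATP synthase subunits had 11 of 16 lower and 1 higher (-0.43), and assembly factors 21 of 41 and 7 (-0.29). Mitochondrial ribosomal proteins had 44 of 78 and 9 (-0.31), and regulators 11 of 15 and 1 (-0.89). Of the 7 mitochondrially encoded genes, 3 were lower and 0 higher (-0.57). The citric acid cycle had 5 of 14 lower and 5 higher (0.03), and cytosolic ribosomal proteins 7 of 77 and 10 (0.06). Other scalings, on which the direction for the members depended, were not run for these lists.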

How the data were processed

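RNA was sequenced from 20 samples, 5 per tissue and genotype. Per the labels' protocols, extraction used a Qiagen RNeasy kit, and the library kit (TruSeq Stranded mRNA) keeps strand. The submitters' processing notes list build GRCm38 and the tools RSEM 1.2.12, STAR 2.4.0d, Trim Galore 0.2.8 and DESeq2, with annotation, strand setting and order of steps not given in the sources used here. Per gene, the authors deposited expected counts, of which 3.95% to 5.8% were not whole in a library; reads shared between similar genes are split in such counts. Expected counts were rounded. Depth ran from 12880933 to 20784135 counts, and an SD over 5 mice includes counting error. Of 48440 gene IDs, 48058 matched a symbol. Within each group, chi-square over its degrees of freedom was 15.95 or more for every pair of libraries, so none was counted as a duplicate.

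Genes passing filterByExpr (minimum count 10, minimum total 15) were fitted with edgeR 4.0.16 (robust quasi-likelihood, TMM; limma 3.58.1, R 4.3.3), KO against WT within each tissue, fat against liver within each genotype, and the interaction with all 20. Benjamini-Hochberg adjustment ran over all genes tested, and genes under 0.05 were called; intervals are at 95%. Log2 CPM used a prior count of 2. The trend of a library with GC content and length was a spline with 4 degrees of freedom for each, fitted over all genes and removed as an offset, with the longest or, chosen after seeing the data, the principal transcript. The steps were tested on simulated data. Alternatives were other scalings and filters, DESeq2 1.42.0, limma-voom, the replicate number as a block, and libraries left out. Members named with values had the 6 smallest p in each tissue, the smallest of a complex or the 3 smallest of the interaction. Others had the 4 largest tissue differences each way, the largest of a complex, or the highest or lowest level per length. The rest had ranges apart or shared reads, and Ndufs5 was added to complete a count. For levels per kb, the principal transcript replaced the longest after the data were seen. The members and lists were chosen with earlier results of these data known. Markers and paralogs used plain library sizes.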

Additional observations from a re-analysis of the deposited data

Results flagged for a closer look

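Single libraries far from the other 4 of their group were found in 6 of 112 groups checked, where chance gives about 5%. KO liver 5 accounted for 3 of them, all low: Cox4i1 at 185.5 CPM (others 239 to 258), Ndufb11 at 74.9 CPM (others 87.8 to 88.8) and Uqcrq at 86.1 CPM (others 133 to 152). KO liver 1 was high for Ndufa3, with 40.8 CPM (others 35.4 to 36.9). WT liver 1 was high for Sdhd, with 241 CPM (others 199 to 209). In fat, the score of complex III was 0.15 in KO fat 2, where the other 4 lay between -0.06 and -0.02.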

How the results depend on the processing

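The counts of 0 members called between KO and WT mice, per tissue and for the interaction, were 0 under each alternative run (23, 23 and 28 alternatives). The member median in fat ran from -0.08 to 0.06 and that in liver from -0.07 to 0.07. Each alternative lay less than 1 SD of the library scores (0.10 and 0.13) from the main median (-0.02 and 0.01).

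For WT fat against WT liver, the member median of -0.33 was -0.034 with upper quartile scaling, 0.60 with plain library sizes, 0.25 without the 100 genes with the most counts, -0.087 with the GC and length trend removed and -0.19 with that of the principal transcript. The 34 members called lower in fat were 20, 1, 4 and 20 under the first 4 of these, and the 5 called higher were 14, 50, 32, 16 and 9. Of all genes called, 34.9%, 17.5%, 24.9%, 47.9% and 47.2% were lower in fat, in the same order, against 48.3% before. The cause was not tested. Leaving out single libraries gave 2 to 6 called higher and 30 to 35 called lower, where 47.9% to 48.6% of all called genes were lower. Of single members, Cox4i1 in liver was the only one of those followed (8 per tissue) to change sign, with 0.011 after removal of the principal transcript's trend; the cause was not tested.

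With the replicate number as a replicate block, 0 members were called between KO and WT mice in either tissue. The member median was -0.02 in fat and 0.00 in liver. Between WT fat and WT liver, 33 and 5 members were called lower and higher. In that comparison 10537 of 14739 genes were called, 48.5% of them lower. No label says that the numbers pair the samples, and correlations cannot decide it, since paired samples need not share deviations. Between KO and WT, libraries with the same number had correlations of deviations from -0.23 to 0.49 in fat and from -0.24 to 0.23 in liver. The same number gave the best match for 3 of 5 and 1 of 5 pairs. With the block, 9.46% of all genes in fat had an unadjusted p under 0.05 by edgeR, against 7.13% without it. In liver the share was 13.1% either way. Titles of fat and liver samples share numbers, but no label ties them to 1 mouse. Between fat and liver the correlations ran from -0.08 to 0.20 in WT and from -0.02 to 0.08 in KO mice, with 2 of 5 and 1 of 5 best matches. The main fits treated all libraries as independent. Of the intervals, 57 of 59 in fat and 59 of 59 in liver lay within 1.5-fold, and smaller changes between KO and WT were only partly within reach; the parts of depth and of spread between mice were not tested.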
